A study of Mus musculus with 4 samples.

Results

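The interferon-induced transmembrane (Ifitm) genes of the mouse were examined in epidermal RNA from mice labelled as epithelial knockouts of the calcium sensors STIM1 and STIM2 and from their floxed controls. The 7 members were taken by gene name (Ifitm1, Ifitm2, Ifitm3, Ifitm5, Ifitm6, Ifitm7 and Ifitm10), out of 56493 genes in the deposited table. The family was chosen by the counts of Ifitm6 in knockout and control in these same libraries. The members' values in that contrast are therefore a description. Where the fit over the whole table called a member, the count is printed with that of all genes and supports nothing.

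The series holds 4 libraries. In 2 of them the mice carried a conditional knockout of Stim1 and Stim2 (cKO) made with a Cre recombinase under the keratin 14 promoter, which is active in basal cells of stratified epithelium. The other 2 came from mice with the floxed Stim1 and Stim2 alleles (Stim1/2fl/fl, labelled Flox/Flox and called control here), so both groups carry these alleles. RNA came from the epidermis of dorsal skin, which sodium thiocyanate had parted from the dermis, and the design text calls the cells keratinocytes. The libraries read the 3' end of transcripts. Ages were not given in the sources used here, and the labels do not say whether the libraries of a group came from separate animals, so that p-values measure the spread between these libraries, which may be technical.

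IFITM proteins are small membrane proteins of the plasma membrane and of endosomes that interfere with the fusion of enveloped viruses with the cell. Most are induced by interferons, whose receptors act through JAK kinases and a complex that holds STAT2 and IRF9, and several are also made without interferon in epithelium and stem cells. Ifitm5 is an exception that serves bone mineralisation, and Ifitm6 RNA is known mainly from monocytes, macrophages and neutrophils.

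Total counts ran from 118858 (cKO replicate 2) to 322426 (control replicate 2), and 4243 genes passed the count filter. Values are CPM, the count of a gene relative to the TMM-scaled size of its library. A count of 0 allows up to 3 counts, which equalled 12.1 and 33.7 CPM in cKO replicates 1 and 2 and 16.0 and 9.58 CPM in control replicates 1 and 2. These limits, and the intervals below, cover counting error only. Stim1 had 24 and 62 counts in control against 23 and 6 in cKO, and Stim2 had 3 and 18 against 0 and 1. In edgeR's quasi-likelihood test with Benjamini-Hochberg adjustment Stim1 was at a log2 fold change of -0.98 (adjusted p 0.671), and Stim2 was under the filter. A count at the 3' end need not report a deleted exon elsewhere in the gene. The epidermal keratins and other keratinocyte markers summed to 10440 to 15680 CPM in every library. Of the 8 tested ones, 4 had a log2 fold change above 0 and 4 below. By edgeR 0 were called, while DESeq2 and limma-voom each called 1 higher. Krt14 had 928 and 865 CPM in control and 4355 and 3001 CPM in cKO (edgeR adjusted p 0.0507). Krt15 had 2855 and 2098 CPM in control and 841 and 1551 CPM in cKO (edgeR adjusted p 0.526). Both genes were picked out after their values were seen. Endothelial markers had at most 1 count in any library. Fibroblast markers summed to 160 and 102 CPM in control and 36.4 and 607 CPM in cKO. Melanocyte markers summed to 325.5 and 86.2 CPM in control and 137.5 and 427 CPM in cKO. The groups overlapped for both lists, and the share of other cells thus varied between libraries.

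Of the members, 5 lie together on chromosome 7 in the order Ifitm5, Ifitm2, Ifitm1, Ifitm3 and Ifitm6, within 69.0 kb (140528871 to 140597837, table positions on GRCm39, the build named in the submitters' processing notes). Between Ifitm3 (ENSMUSG00000025492, 140589499 to 140590683, minus strand) and Ifitm6 (ENSMUSG00000059108, 140595612 to 140597837, minus strand) lie 4928 bases. Ifitm2 (ENSMUSG00000060591, 140534750 to 140535900) is on the minus strand too, while Ifitm1 (ENSMUSG00000025491, 140547134 to 140549738) is on the plus strand. Ifitm10 (ENSMUSG00000045777) is farther along chromosome 7, at 141879574 to 141927490, and Ifitm7 (ENSMUSG00000065968) is on chromosome 16, at 13799563 to 13804752.

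The regulatory sequence at the start of Ifitm6 is shown beside that of Ifitm2 and Ifitm3 because these 3 neighbours were the members with usable counts. Sequences are those of RefSeq on GRCm38.p6, 5′ to 3′ on the gene's strand, and all 7 members had an entry, in 9 windows of 300 bases. Capitals mark GAAA repeated after any 2 bases, the core of the interferon-stimulated response element, or TATAAA, the TATA box. The Ifitm2 stretch is chr7:140955988-140956017, from 56 to 27 bases before the start. The Ifitm3 stretch is chr7:141010715-141010744, the first 30 transcribed bases. The Ifitm6 stretch is chr7:141016893-141017142, the 250 bases before the start. All are on the minus strand.
Ifitm2: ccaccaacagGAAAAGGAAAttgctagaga
Ifitm3: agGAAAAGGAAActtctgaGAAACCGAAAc
Ifitm6: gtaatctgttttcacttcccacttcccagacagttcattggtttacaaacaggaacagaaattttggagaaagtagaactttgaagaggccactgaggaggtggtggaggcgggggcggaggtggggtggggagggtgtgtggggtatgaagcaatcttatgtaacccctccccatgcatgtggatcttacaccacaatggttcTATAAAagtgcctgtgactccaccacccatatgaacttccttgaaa
The GAAA repeat with any 2 bases between, searched on both strands, was found in 2 of the 9 windows, those of Ifitm2 and Ifitm3, and in 3.44% of 32851 RefSeq windows of the same length. Ifitm3 held 2 such matches and Ifitm2 held 1. TATAAA on the gene's strand was found in 1 of the 9 windows, that of Ifitm6, at -46 to -41, and in 8.32% of all windows. These 2 elements do not cover every sequence that answers interferon. GGAAAA, the core bound by the calcium-regulated factor NFAT, on either strand, was in 3 of the 9 windows (Ifitm2, Ifitm3 and Ifitm10) and in 23.4% of all. In Ifitm2 and Ifitm3 it overlaps the GAAA repeat. GAGGAA, the core bound by the myeloid factor PU.1, on either strand, was in 1 window, of Ifitm10, and in 28.3% of all. A match or its absence says only whether these letters stand in this window. The RefSeq start lies 26 bases from the nearest GENCODE M21 start in Ifitm2 and Ifitm3 and 16 bases in Ifitm6.

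Ifitm2, which restricts viruses that enter through endosomes, was the most abundant member. It had 87 and 115 counts (464 and 367 CPM) in control and 47 and 33 counts (190 and 371 CPM) in cKO. The control mean was 416 ± 68.6 CPM and the cKO mean 280 ± 128 CPM (SD, n = 2), and the groups overlapped because cKO replicate 2 lay above control replicate 2. The fitted log2 fold change of Ifitm2 was -0.61 (SE 0.47). It was -0.20 without cKO replicate 1 and -1.12 without cKO replicate 2.

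Ifitm3, the best studied antiviral member, had 21 and 32 counts (112 and 102 CPM) in control and 37 and 11 counts (150 and 124 CPM) in cKO. The means were 107 ± 6.98 CPM in control and 137 ± 18.4 CPM in cKO (SD, n = 2). Both cKO values lay above both control values after TMM scaling, but scaled by library totals alone the cKO values of 131 and 92.5 CPM lay on either side of the control values of 105 and 99.2 CPM. For Ifitm3 the fitted log2 fold change was 0.37 (SE 0.49), so the difference was smaller than its error.

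Ifitm6 had 14 and 43 counts (74.7 and 137 CPM) in control and 0 counts in both cKO libraries. The control mean was 106 ± 44.3 CPM (SD, n = 2). Both cKO libraries lay below both control libraries, and against 3 counts per library Ifitm6 was at least 4.62-fold lower in cKO. The bound was 8.74 without cKO replicate 2, the shallowest library, and 3.14 without cKO replicate 1. At the lower of the control levels, cKO replicate 1 would hold 18.5 counts of Ifitm6 and cKO replicate 2 would hold 6.65. In bulk RNA, fewer cells that make a transcript and less of it per cell cannot be told apart.

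The other 4 members, Ifitm1, Ifitm5, Ifitm7 and Ifitm10, had at most 1 count in any library. Ifitm1 had 1 count, in cKO replicate 2. Ifitm5, the bone gene, had 1 count, in control replicate 2. Ifitm10, a member of little known function, had 1 count in cKO replicate 2 and 1 in control replicate 2. Ifitm7 had 0 in all libraries. At this depth a difference was not detectable in any of these 4, and no fold is given.

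**Figure D1:**
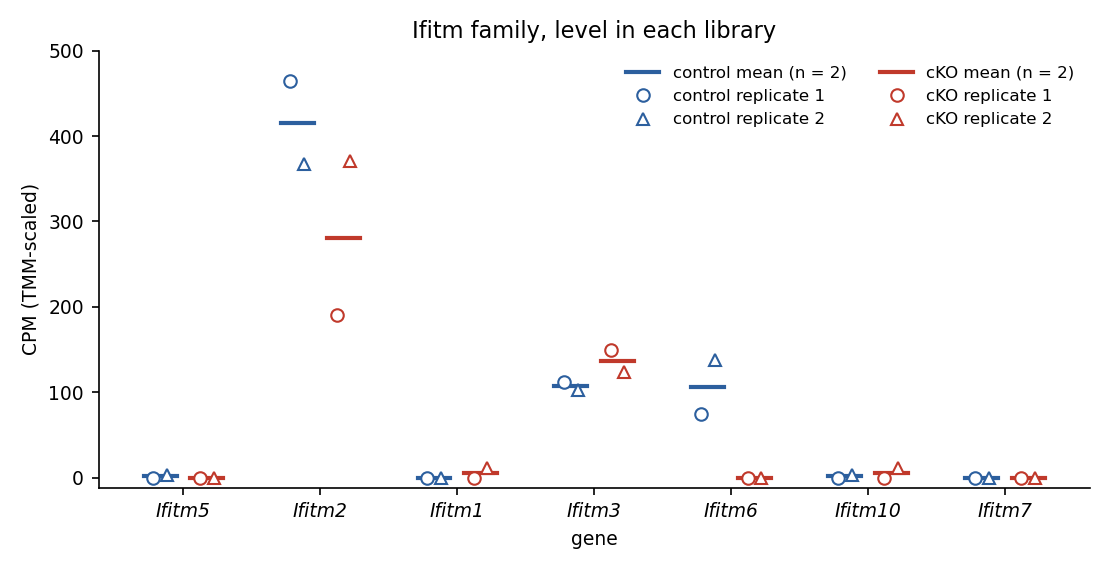
Level of each Ifitm gene in TMM-scaled CPM (vertical axis), with genes along the horizontal axis in their order on chromosome 7 and Ifitm7 (chromosome 16) last. Open circles are replicate 1, triangles replicate 2, and lines the mean of 2 libraries. Ifitm6 is at 74.7 and 137 CPM in control and at 0 in both cKO libraries, while Ifitm2 overlaps between the groups.

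In control, the order of levels was Ifitm2, then Ifitm3 and Ifitm6 together. Both Ifitm2 libraries were above those of the other members, and Ifitm3 (102 to 112 CPM) lay within the range of Ifitm6 (74.7 to 137 CPM). Per kilobase of annotated exon the control means were 635 CPM for Ifitm2, 158 CPM for Ifitm3 and 117 CPM for Ifitm6, in the same order. With counts from the 3' end, a level does not have to scale with length. In cKO, Ifitm2 stayed above Ifitm3 in each library.

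Of the 7 members, 3 passed the count filter (Ifitm2, Ifitm3 and Ifitm6), and Ifitm6 did so only through the control libraries. By edgeR's quasi-likelihood test with Benjamini-Hochberg adjustment over all 4243 genes, 1 of these 3 was called, and it was lower in cKO. Over all tested genes 0.848% were called, and 0.189% were called lower. This call is the one for which the family was chosen, and nothing is read from the count. Higher in cKO were 0 members and 0.66% of all tested genes. The call was not made with limma-voom (0.354% of genes called), with a replicate block (0.401%) or without control replicate 2 (0.825%), where 0 members were called. It was made with DESeq2 (1.01% called), library totals (0.872%), glmQLFit with legacy set to FALSE (0.966%), a crossed block (3.46%), and without cKO replicate 1 (1.53%), cKO replicate 2 (1.72%) or control replicate 1 (0.919%). It was also made with no count filter (0.437% called) and with genes of a mean of 10 CPM or more (0.614%). In 2 of the 3 tested members (Ifitm3 and Ifitm6) the groups did not overlap, as in 38.5% of all tested genes. The median log2 fold change of all tested genes was 0.01.

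Counts of the members within a library do not depend on scaling between libraries. All 7 together had 122 and 192 counts in control and 84 and 46 in cKO. Ifitm6 made up 11.5% of these in control replicate 1 (exact Clopper-Pearson 95% interval 6.42% to 18.5%). In control replicate 2 its share was 22.4% (16.7% to 29.0%). It was 0 of 84 counts in cKO replicate 1, which allows a share of up to 3.57%, and 0 of 46 in cKO replicate 2, which allows up to 6.52%. The exact intervals reached 4.30% and 7.71%. The interval of cKO replicate 1 lay below those of both control libraries, and that of cKO replicate 2 overlapped that of control replicate 1. These are the counts for which the family was chosen. The intervals therefore give counting error within a library and are no test between the groups.

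The balance of Ifitm3 and Ifitm2 also varied between libraries. Ifitm3 was 19.4% of their joint counts in control replicate 1 (12.5% to 28.2%). The other control library had 21.8% (15.4% to 29.3%). In cKO replicate 1 the share was 44.0% (33.2% to 55.3%), and the other cKO library had 25.0% (13.2% to 40.3%). Only the interval of cKO replicate 1 lay apart from those of both control libraries, and the interval of the other cKO library overlapped all others.

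The family as a whole summed to 651 and 613 CPM in control and 340 and 517 CPM in cKO, and the groups did not overlap. Without Ifitm6 the sums were 576 and 476 CPM in control and 340 and 517 CPM in cKO, and the groups overlapped. The family was chosen by the counts of Ifitm6, so nothing is read from the sums that include it. Among all tested genes 38.5% had groups that did not overlap.

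**Figure D2:**
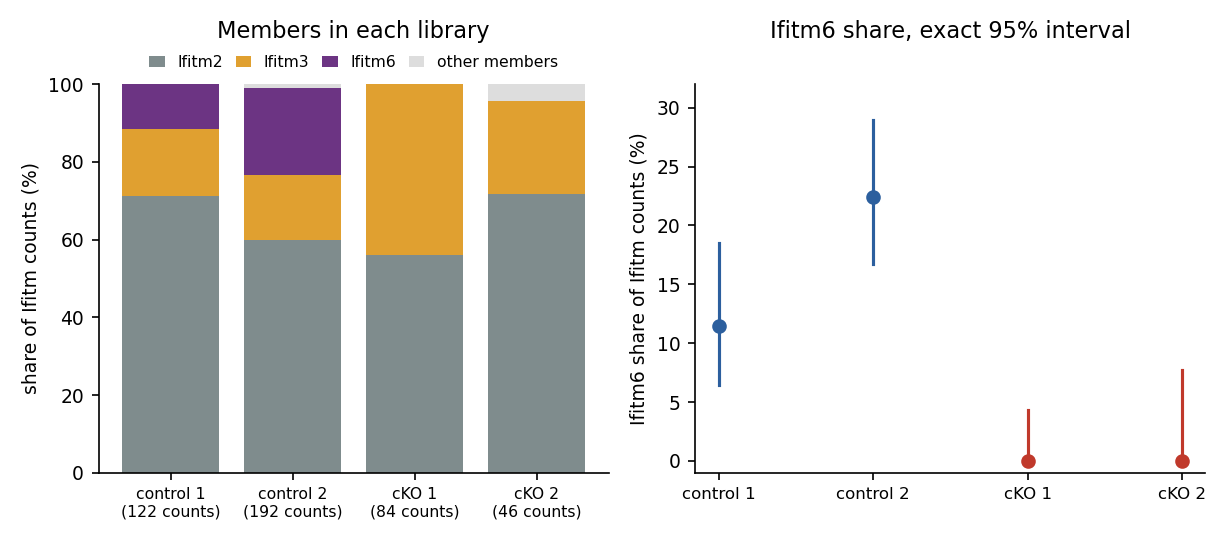
Left, share of each member in all Ifitm counts of a library (percent, with the number of counts under each bar). Right, share of Ifitm6 alone with its exact 95% interval. The share is 11.5% and 22.4% in the control libraries and 0% in both cKO libraries, and the interval of cKO replicate 2 overlaps that of control replicate 1.

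Near-identical sequence can move counts between genes, and how reads with several alignments were handled is not given in the sources used here. Among GENCODE M21 transcripts no other gene matched the last 300 bases of Ifitm6 or of Ifitm3 at an identity of 95% or more across 100 bases or more. The closest members to Ifitm6 over the whole transcript were Ifitm1 (79.0% over 138 bases) and Ifitm3 (78.3% over 138 bases). The end of Ifitm2 had 4 such copies, all processed pseudogenes, with 0 and 1 counts together in control against 2 and 0 in cKO. Ifitm2 also shares 268 of its 655 exon bases (40.9%) with Gm45717, a gene on the same strand that runs into Ifitm5, but none of them is in the last exon of Ifitm2. The counts of Gm45717 were 3 and 1 in each group. No other gene of the table overlapped the exons of Ifitm6.

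The genes around the cluster were compared with Ifitm6 next. The table lists 80 other genes within 500 kb of the cluster, of which 42 had a count and 16 were tested. By edgeR 0 of the 16 were called in either direction, against 0.848% of all tested genes. At an unadjusted p under 0.05 there was 1, which was higher in cKO, while over all 4243 tested genes 179 were higher and 177 lower at that level. DESeq2 and limma-voom also called 0 of the 16. Their log2 fold changes ran from -0.57 to 1.36, with a median of -0.13. The nearest tested gene beyond Ifitm6 was Pkp3, which encodes plakophilin 3, a desmosome plaque protein, and starts 60.3 kb away. Pkp3 had 912 and 837 CPM in control and 522 and 764 CPM in cKO, or -0.46 on the log2 scale (SE 0.42, edgeR adjusted p 0.898). On the other side the nearest tested gene by its start was the processed pseudogene Gm15542. It had 16.0 and 54.3 CPM in control and 16.2 and 135 CPM in cKO (log2 fold change 0.79, edgeR adjusted p 0.949). Gm15542 lies within Psmd13, which ends nearer the cluster. Psmd13 had 73 and 78 counts in control and 49 and 49 in cKO (log2 fold change 0.18, edgeR adjusted p 0.992). The groups overlapped for both genes.

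**Figure D3:**
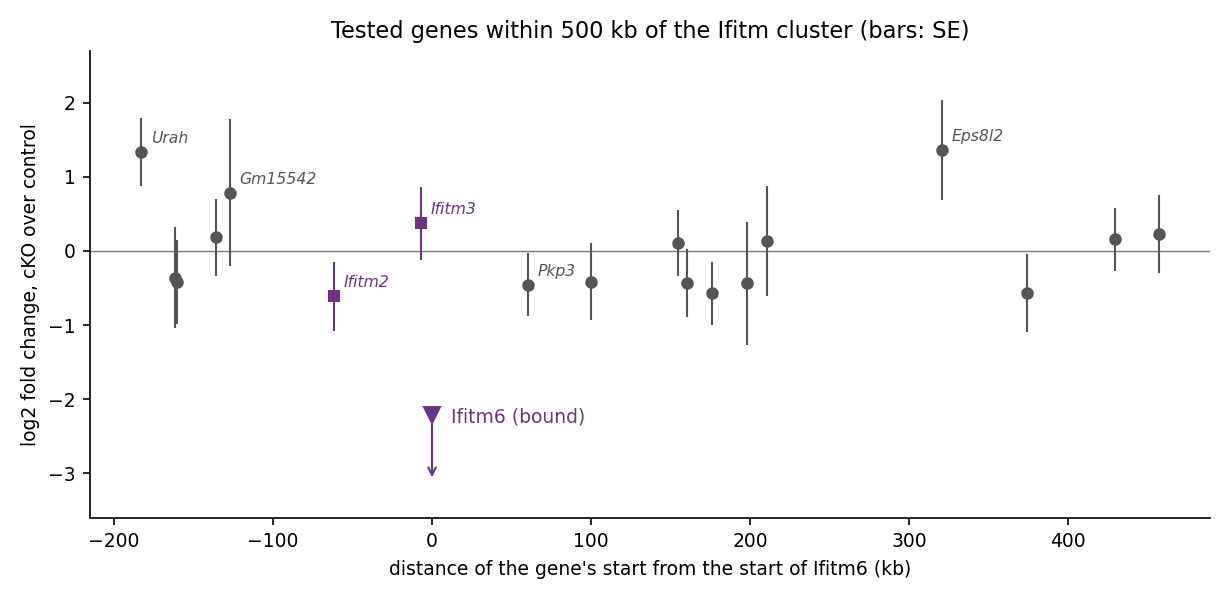
Log2 fold change of cKO over control (vertical axis) of the tested genes within 500 kb of the Ifitm cluster, by the distance of each gene's start from that of Ifitm6 in kb. Bars are standard errors, and squares are Ifitm2 and Ifitm3. The triangle with an arrow is the bound of Ifitm6, at least 4.62-fold lower. The 16 genes that are not members lie between -0.57 and 1.36. Urah and Eps8l2, the highest of them, were picked out after their values were seen.

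Interferon signalling was followed through a list of 22 receptors, kinases and factors, of which 4 passed the filter. By edgeR 0 of the 4 were called, 0 had an unadjusted p under 0.05, and DESeq2 and limma-voom called 0. With 0.848% of all tested genes called, a list of 4 genes, or of the 13, 5 and 2 tested below, says little by a count of 0. Their median log2 fold change was 0.37. Ifngr2, a chain of the interferon gamma receptor, had 26.7 and 44.7 CPM in control and 72.8 and 89.9 CPM in cKO (log2 fold change 1.11, SE 0.70, adjusted p 0.758). Ifngr1, the other chain, was at 0.47 (SE 0.72, adjusted p 0.965). Jak1, a kinase of both interferon receptor types, had 261 and 246 CPM in control and 182 and 157 CPM in cKO (log2 fold change -0.56, SE 0.44, adjusted p 0.854). The groups did not overlap for 2 of the 4, Ifngr2 and Jak1, which differ in direction, beside 38.5% of all tested genes.

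Transcription factors of the interferon response had few counts. Stat2 had 1 and 3 counts in control and 4 and 0 in cKO. Irf9, its partner, had 4 and 8 counts in control and 10 and 0 in cKO. Irf7, which amplifies the response and lies 248.6 kb from Ifitm6, had 1 and 4 counts in control and 8 and 6 in cKO. None of these 3 passed the filter. The type I interferon receptor chain gene Ifnar1, named with its values known, was counted 1 and 2 times in control and 0 times in cKO.

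Of 52 other interferon-stimulated genes, 46 had a count and 13 were tested. By edgeR 0 were called and 1 had an unadjusted p under 0.05. DESeq2 and limma-voom called 0. Of the 13 log2 fold changes 6 were above 0 and 7 below, with a median of -0.04, and the list summed to 1841 and 1961 CPM in control and 1767 and 2124 CPM in cKO. The group sums of this list overlapped. Trim25, a ubiquitin ligase of the RIG-I pathway, had 2 and 6 counts (10.7 and 19.2 CPM) in control and 26 and 10 counts (105 and 112 CPM) in cKO. Its log2 fold change was 2.75 (SE 0.74, unadjusted p 0.0026, adjusted p 0.153), so it did not pass the threshold. Over the alternatives, the crossed block apart, it stayed between 2.46 and 3.26, with an adjusted p from 0.124 to 0.562, and with that block the adjusted p was 0.0433. Ifi27l2a, an interferon-induced mitochondrial protein gene, had 80.0 and 22.4 CPM in control and 36.4 and 124 CPM in cKO, and its groups overlapped (adjusted p 0.965). H2-D1, a class I antigen-presenting molecule, was at -0.52 (SE 0.46, adjusted p 0.893). Isg15, Ifit1, Ifit3 and Mx1, classical response genes picked out after their values were seen, had no more than 1 count in any library.

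Proteins that bind or modify IFITM3 were also listed. Of 8 genes 5 were tested, and edgeR, DESeq2 and limma-voom called 0, with 0 at an unadjusted p under 0.05 by edgeR. Their median log2 fold change was -0.06. Vapa, an endoplasmic reticulum protein that binds IFITM3, was at 0.76 (SE 0.61, adjusted p 0.865). Atp6v0b, a subunit of the endosomal proton pump, was at -0.57 (SE 0.45, adjusted p 0.858), and the methyltransferase gene Setd7 was at -0.10 (SE 0.55, adjusted p 0.996). Of the other genes of the CD225 domain family, 7 are in the table under the names searched and 1 had a count, a single one in control replicate 2.

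**Figure D4:**
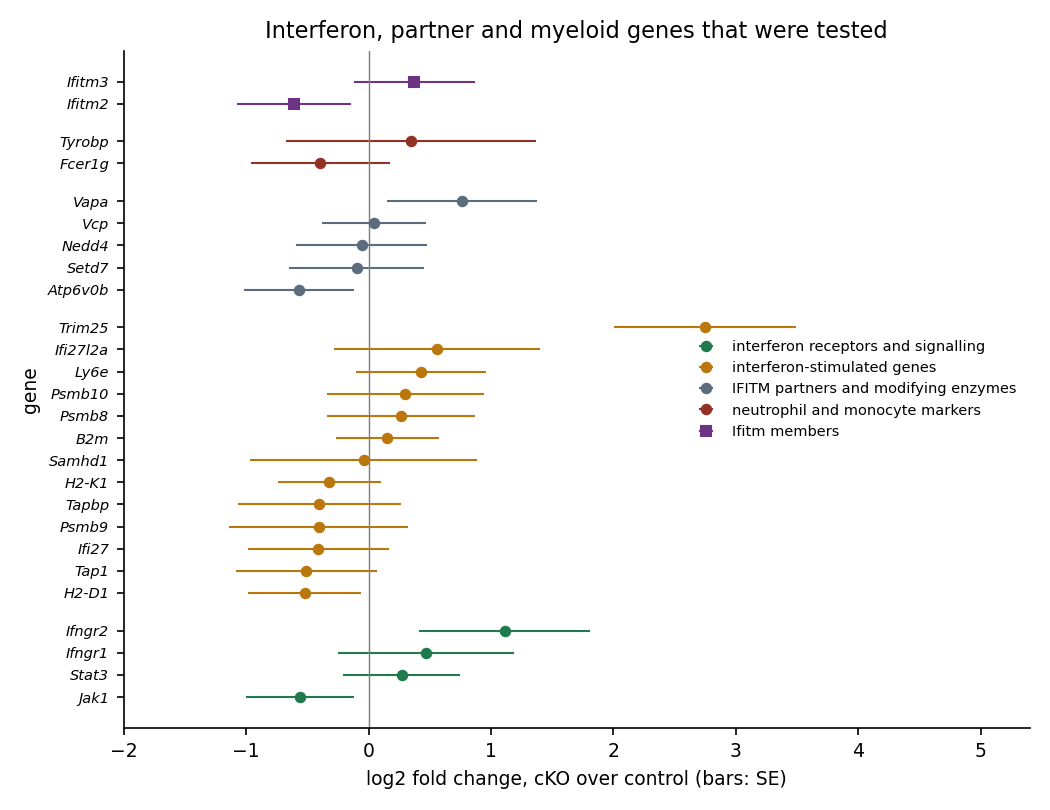
Log2 fold change of cKO over control (horizontal axis) for the tested genes of the interferon, partner and myeloid lists, with Ifitm2 and Ifitm3. Points are fitted values and bars standard errors. None of the genes shown passed the threshold. Trim25 is at 2.75 and the others lie between -0.61 and 1.11.

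Markers of cells known to make Ifitm6 were measured beside it. Of 30 neutrophil and monocyte markers 14 were at 0 in all 4 libraries, among them the neutrophil genes Ly6g, Mpo, Elane, Camp, Ngp, Ltf, Csf3r and Cxcr2. The list summed to 422 and 335 CPM in control and 97.0 and 798 CPM in cKO, so the groups overlapped. The most counted of them in each library was Fcer1g, an immunoreceptor adaptor that Langerhans cells share, with 213 and 185 CPM in control and 72.8 and 258 CPM in cKO. By edgeR 0 of the 2 tested markers (Fcer1g and Tyrobp) were called, and 0 had an unadjusted p under 0.05. DESeq2 and limma-voom called 0. Lyz2, the myeloid lysozyme, had 8 and 6 counts in control and 1 and 19 in cKO. Cd68, of macrophages, had 1 and 4 counts in control and 0 and 6 in cKO. In cKO replicate 2 the list sum was above both control values. The largest values there were those of Fcer1g, Lyz2 (213.5 CPM) and Tyrobp (135 CPM). The sum does not show whether cells that make Ifitm6 were present. Langerhans cell and macrophage markers summed to 4253 and 2478 CPM in control and 1593 and 3956 CPM in cKO, and overlapped as well. Most of that sum was from class II antigen presentation genes and Epcam. Cd207, which encodes langerin and defines Langerhans cells, had 8 and 10 counts in control and 1 and 0 in cKO. Its groups did not overlap, as in 38.5% of all tested genes. Cd207 was under the filter, with a bound of 1.63-fold against 3 counts per library. T cell markers summed to 336 and 271 CPM in control and 247 and 191 CPM in cKO. Among them the leukocyte gene Ptprc had 26 and 18 counts in control and 2 and 4 in cKO (log2 fold change -2.20, SE 0.90, edgeR adjusted p 0.494). Trdc, of gamma delta T cells, had 2 and 9 counts in control and 0 in both cKO libraries. Other markers of these lists went the other way. Of the 6 tested Langerhans cell and macrophage markers, 2 had a log2 fold change above 0 and 4 below. Of the 3 tested T cell markers, 1 was above 0 and 2 were below. Epcam had 267 and 243 CPM in control and 408 and 708 CPM in cKO (log2 fold change 1.11, edgeR adjusted p 0.493). Thy1 was at 1.36 (SE 0.84, edgeR adjusted p 0.747), and its groups overlapped. Mmp9, a gelatinase, had 5 and 9 counts in control and 0 in both cKO libraries, and Plac8, of monocytes and epithelia, had 5 and 1 against 0. Trdc, Mmp9 and Plac8 were under the filter. Their control means were 0.86, 1.21 and 0.65 times the level of 3 counts in the cKO libraries. No decrease can be stated for Trdc or Plac8. Lyz2, Cd68, Cd207, Ptprc, Trdc, Epcam, Thy1, Mmp9 and Plac8 were picked out after their values were seen. Their part in the level of Ifitm6 was not tested.

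The genes whose pattern over the 4 libraries was most like that of Ifitm6 were found by Euclidean distance in log2 CPM (prior count 2) among the 4243 tested genes. The nearest was Pvalb, the calcium buffer parvalbumin of fast muscle, at a distance of 0.45. It had 19 and 50 counts in control and 0 in both cKO libraries. Hamp2, a hepcidin gene, followed at 0.56 with 12 and 29 counts against 0 and 0. Ckm, the muscle creatine kinase, was at 0.74 with 15 and 29 counts in control and 1 and 0 in cKO. The next were Crisp1, Sccpdh, the adhesion gene Nectin3, Tnnt3, Tnni2, Myh4 and Pstk, at distances from 1.12 to 1.44. All 10 had at most 3 counts in each cKO library, and 2 of them (Pvalb and Myh4) were called in the fit. Over all tested genes 0.848% were called. Low cKO counts follow from the choice by likeness to Ifitm6, so nothing is read from them or from the calls.

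Of these 10 genes, 4 (Pvalb, Ckm, Tnnt3 and Myh4) are in the list of skeletal muscle markers, and Tnni2 encodes a fast muscle troponin too. That list holds 6 of the 4243 tested genes. The 8 muscle markers together summed to 1425 and 974 CPM in control and 44.5 and 135 CPM in cKO. All 8 had a count, 6 were tested, and 4 were called lower by edgeR (2 by DESeq2, 0 by limma-voom). Over all tested genes 0.189% were called lower by edgeR, which is 8 genes, with 8 by DESeq2 and 3 by limma-voom. Muscle marker sums were low in both cKO libraries, where Ifitm6 had 0 counts. Any gene lower in cKO shares this, and the muscle genes among the 10 were found by the values of Ifitm6. In control the muscle sum was higher in replicate 1. Ifitm6 was higher in control replicate 2 (137 CPM) than in control replicate 1 (74.7 CPM). Whether muscle RNA has a part in the level of Ifitm6 was not tested. By position, looked at once the values were known, 5 of the 10 (Hamp2, Ckm, Tnnt3, Tnni2 and Pstk) are on chromosome 7, as are 7.45% of the tested genes. Tnni2 (141995545 to 141998147) and Tnnt3 (142052573 to 142069746) lie beyond Ifitm10. Of the targeted genes, Stim1 is on chromosome 7, at 101917013 to 102086526, and Stim2 is on chromosome 5, at 54155841 to 54278399. Whether position has a part in the level of Ifitm6 was not tested.

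Of the 4243 tested genes, 6 had 0 counts in both cKO libraries, namely Hamp2, Ifitm6, Myh4, Pvalb, Tnni2 and Tnnt3. There were 5 with 0 in both control libraries. Such genes passed the filter only through the other group. Their number is set in part by that filter, and nothing is read from it.

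**Figure D5:**
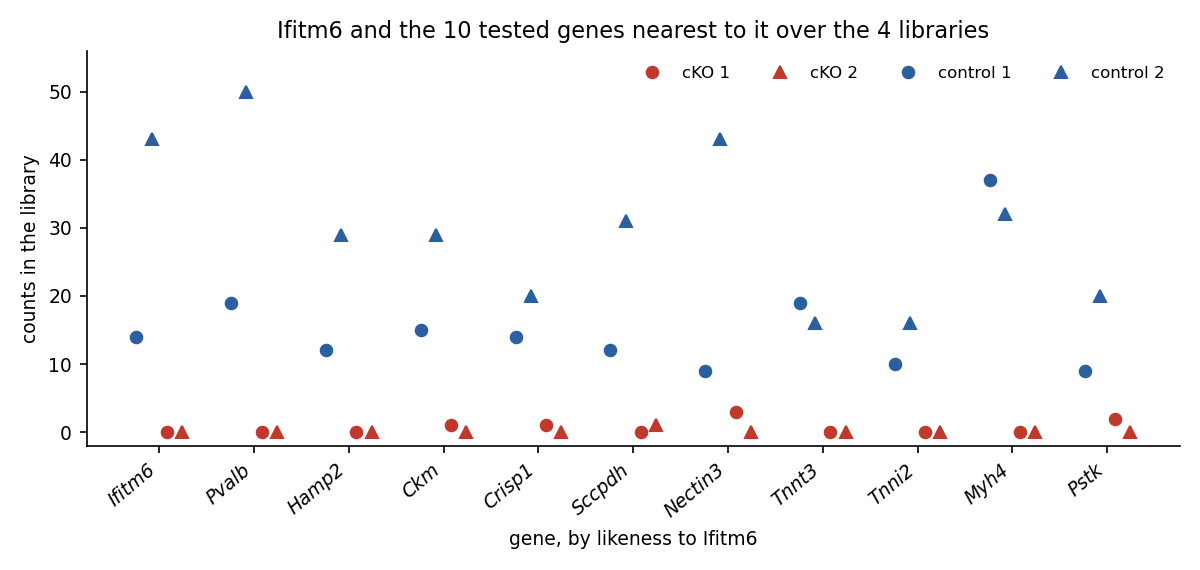
Counts in each library (vertical axis) for Ifitm6 and the 10 tested genes nearest to it in log2 CPM over the 4 libraries, ordered by likeness. Circles are replicate 1 and triangles replicate 2. Each of the 10 has at most 3 counts in either cKO library, and Pvalb, with 19 and 50 counts in control, is the nearest.

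Ifitm3 had unlike company. Its nearest genes on the same measure were Gm16409 at 0.07, Macc1 at 0.11, Rpl35a-ps2 at 0.19, Rtraf at 0.26 and Chic2 at 0.28. Macc1, a regulator of growth factor signalling, had 21 and 34 counts in control and 39 and 11 in cKO, and Ifitm3 had 21 and 32 against 37 and 11. None of these 5 was called.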

How the data were processed

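The authors deposited 1 table of raw counts per gene, as whole numbers without normalisation. Trim Galore 0.6.7, Trimmomatic 0.39, cutadapt 3.7, STAR 2.7.10a, featureCounts 2.0.1 and the build GRCm39 are named in the submitters' processing notes, without role or order. The use of strand and of molecular identifiers is not given in the sources used here. Libraries were grouped by genotype in their titles, and 0 per-sample columns were left unused. The members and lists were chosen with earlier results of these data known.

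Genes were kept with filterByExpr (minimum count 10, total 15), which left 4243 genes with 87.6% of the counts. Counts were scaled with TMM and tested in edgeR 4.0.16 (R 4.3.3; estimateDisp, glmQLFit, glmQLFTest, genotype only), a fit also tested on simulated data. P-values were adjusted by Benjamini-Hochberg with a threshold of 0.05. Standard errors are the log2 fold change over the square root of F. Depth ran from 118858 to 322426 counts, and 3 counts is the limit of a count of 0.

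The text names all members, Stim1 and Stim2. From each pathway list (interferon signalling, interferon-stimulated, partner and myeloid genes; not the cell type markers) it names the 3 tested genes with the largest absolute change, called genes, and Stat2, Irf9 and Irf7 (1 further gene of this rule, and 1 of the 5 motifs searched, are not reported here). Beside the cluster it names the tested gene with the nearest start on each side, and Psmd13, which holds 1 of them. By likeness it names 10 genes for Ifitm6 and 5 for Ifitm3. Transcripts were compared with blastn 2.17.0. Alternatives were other scalings and filters, DESeq2 1.42.0, limma-voom (limma 3.58.1), glmQLFit with legacy set to FALSE, a replicate block and each library left out.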

Additional observations from a re-analysis of the deposited data

How the results depend on the processing

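In every alternative run, Ifitm2 kept a log2 fold change below 0 (-1.12 to -0.20) and Ifitm3 one above 0 (0.16 to 0.49), and neither was called. Ifitm6 stayed below 0 in the fit (-7.90 to -5.01), but the number of members called went from 1 to 0 with limma-voom, with the replicate block and without control replicate 2. Leaving out each library in turn gave 0 to 1 members called, 27 to 48 genes higher and 4 to 28 lower, where a lone library of a group is assumed to vary like the other group. The whole-table counts, 28 higher and 8 lower, became 49 and 26 without a count filter, 12 and 3 with limma-voom, and 16 and 1 with the replicate block, and 15 genes were lower when genes with a mean of 10 CPM or more were kept. The causes were not tested. Library totals as the only scaling moved the median of all tested genes to -0.21. The control share of Ifitm6 was 11.5% to 22.4% when a library was left out. With 0 counts of Ifitm6 in both cKO libraries, the size of its fitted log2 fold change depends on how a fit treats a count of 0. Its bound against 3 counts per library ran from 3.14-fold to 8.74-fold over the scalings and libraries left out. Without control replicate 2 the bound was 3.26-fold.

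Same-numbered libraries of the groups did not deviate together (correlation across genes -0.20), so the numbers were not taken as pairs. A block with crossed numbers, chosen after seeing the data, called 90 genes higher and 57 lower, with 1 gene of the interferon and partner lists and 1 beside the cluster. Depth limits Ifitm1, Ifitm5, Ifitm7, Ifitm10 and the interferon factors, which were under the filter.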
